A study of Mus musculus with 2 samples.

Results

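The nuclear genome of the mouse encodes most subunits of the 5 oxidative phosphorylation complexes, and 97 gene rows of this family were followed here, of 34097 rows in all. Rows were taken by symbol, those that start with Nduf, Uqcr, Atp5 or Sdh (Sdha to Sdhd and the Sdhaf assembly factors) or that match Cox4 to Cox8. Of 101 candidate rows, Cox5b-ps was dropped as a pseudogene name, and Cox8b, Cox8c and Ndufb11b for having fewer than 20 UMIs (unique molecular identifiers, 1 per captured RNA molecule) in total. The 97 rows carry 96 symbols, because Atp5o is listed under 2 identifiers. They comprise 7 core and 30 accessory subunits of complex I, 4 subunits of complex II, 8 of complex III, 11 of complex IV, 18 rows of complex V, 6 tissue isoforms (Cox4i2, Cox6a2, Cox6b2, Cox7a1, Cox7b2 and Ndufa4l2) and 13 assembly or supercomplex factors.

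The study measured single-cell RNA with the 10x Genomics platform in 2 tumours of LLC cells, a mouse lung carcinoma line, that GEO labels as lung cancer xenografts. One library is the control and 1 carries a short hairpin RNA (shRNA) against Gfpt2, an enzyme that makes glucosamine-6-phosphate, and is called the knockdown library here. The labels name no host strain, sex or age, no hairpin sequence, and not which cells carry the hairpin. With 1 library a group nothing was tested, every difference below is a difference between 2 libraries, and the ranges given cover counting error only.

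Oxidative phosphorylation passes electrons from NADH through complex I, and from succinate through complex II, to complex III and on to oxygen at complex IV, while complex V, the ATP synthase, uses the resulting proton gradient to make ATP. Complexes I, III, IV and V are built from subunits of the mitochondrial and the nuclear genome, so transcripts of both have to be supplied, whereas all subunits of complex II, which is also an enzyme of the tricarboxylic acid cycle, are nuclear. Macrophages and T cells are known to shift between glycolysis and respiration with their activation, and hypoxic tumour cells are known to exchange some subunits for isoforms.

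The promoters of the family are shown first because many members share short motifs of factors known to act on respiratory genes. A RefSeq window of 300 bases (GRCm38.p6, 250 bases before and 50 after the gene's start) was found for 80 of the 96 symbols. The 4 stretches of 80 bases below, all upstream of the start and read on the gene's strand, carry the motif in capitals: the NRF1 motif of Atp5k (chr5:108434405-108434484, minus strand) and of Ndufa11 (chr17:56717667-56717746, plus strand), the YY1 motif followed by the ETS motif of Atp5j (chr16:84835008-84835087, minus strand), and the ERR motif, on the opposite strand, of Atp5g3 (chr2:73911335-73911414, minus strand).
Atp5k: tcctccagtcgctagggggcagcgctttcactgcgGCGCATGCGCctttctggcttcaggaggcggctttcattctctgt
Ndufa11: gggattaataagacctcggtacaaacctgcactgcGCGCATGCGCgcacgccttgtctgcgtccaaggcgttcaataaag
Atp5j: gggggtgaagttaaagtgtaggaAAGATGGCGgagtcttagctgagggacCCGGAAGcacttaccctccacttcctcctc
Atp5g3: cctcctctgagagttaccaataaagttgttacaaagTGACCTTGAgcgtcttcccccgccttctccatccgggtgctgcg

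On either strand, 13 of the 80 members with a window held the core of the NRF1 consensus (16.25%, against 2.56% of all 27025 genes with a window of this length), in which an inner position may be either pyrimidine, 12 the YY1 motif AANATGGCG (15%, against 2.76%), 22 the ETS motif CCGGAAG (27.5%, against 9.93%) and 3 the ERR motif TNAAGGTCA (3.75%, against 1.43%). At least 1 of the 4 motifs was found for 42 of the 80 symbols (52.5%, against 15.2%). All genes with a window are counted here, whether or not they were read in these cells, and the part of expression in the gap was not tested. The E-box CACGTG was found for 7.5% of members and 8.09% of all genes, and the TATA letters TATAAA in 10% and 15.7%. These are matches of letters only, and overlap between motifs was allowed.

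Cells were placed in classes by marker UMIs per 10000 UMIs of the cell. Macrophages had 10 or more of the complement genes C1qa, C1qb and C1qc (4779 cells in the control against 5594 in the knockdown library), T cells 2 or more of the receptor genes Cd3d, Cd3e and Cd3g (1009 and 987 cells), and tumour-like cells no UMI of the leukocyte gene Ptprc, fewer than 5 of the myeloid gene Lyz2 and at least 5000 UMIs (5183 and 5370 cells). Median UMIs per cell were 6086 and 4342 in macrophages, 3026 and 2843 in T cells, and 18984 and 14776 in tumour-like cells. The first 2 classes also held tumour RNA. Hmga2, a chromatin protein of the tumour-like cells (221 and 218 CPM, UMIs per 1000000 UMIs of the class, there), was read at 89.7 and 121 CPM in macrophages and at 106 and 105 in T cells, and 23.8% and 33.8% of the T cells met the macrophage rule too. Along the C1q level of a cell, Hmga2 went from 236 and 229 CPM at 10 to 20 C1q UMIs per 10000 down to 13.1 and 15.7 CPM at 200 or more. A pair of stricter classes, chosen after this was seen, is given beside the rule's classes. C1q-high cells have 200 or more C1q and fewer than 2 Cd3 UMIs per 10000 (2157 and 2063 cells, median 5895 and 4674 UMIs), and Cd3-high cells have 16 or more Cd3 and fewer than 10 C1q UMIs per 10000 (547 and 472 cells, median 2652 and 2438 UMIs). Their Hmga2 levels were 13.1 and 15.9 CPM, and 13.9 and 19.1 CPM. The libraries share 37 cell barcodes.

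Gfpt2, the target, was low throughout, with 295 UMIs in all kept cells of the control library (1.78 CPM) and 81 in the knockdown library (0.586 CPM). In tumour-like cells it gave 226 and 60 UMIs, a log2 ratio of knockdown over control of -1.65. The range in brackets after a log2 ratio runs between the ends of the exact 95% Poisson intervals of both counts, here -2.23 to -1.09.

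Tumour-like cells of both libraries gave almost the same subunit RNA. All members together took 2.58% of the UMIs of the control and 2.55% of the knockdown tumour-like cells, and the median log2 ratio of knockdown over control was -0.01 over the 93 members with at least 100 UMIs in 1 library, against 0.04 over all 12467 genes that passed this minimum. A difference was called at a ratio of 5 to 4 (log2 0.32) in either direction. The isoform Ndufa4l2 was the only member called higher (1 of 93, where 7.75% of all genes were called higher) and 0 members were called lower (2.04% of all genes). The summed log2 ratios of complexes I to V were -0.02, 0.02, -0.03, -0.01 and 0.000.

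Tumour-like cells give up to 192552 UMIs a member, so that small ratios pass counting error. Of the 93 members, 23 had a range wholly above 0, a share near the 24.1% of all genes, and 29 a range wholly below it (10.6% of all genes). Member ranges were narrower, with median ends of -0.06 and 0.03 against -0.10 and 0.18 over all genes, so these shares are no matched background. Among the 7 core subunits of complex I, Ndufv1, which binds NADH, was read at 134 CPM in the control against 117 in the knockdown library (-0.20, range -0.25 to -0.14), and Ndufs7, an iron-sulphur subunit, at 245 and 262 CPM (0.10). In complex III the accessory subunit Uqcrq was lower (498 and 451 CPM, -0.14) and the hinge protein gene Uqcrh higher (363 and 390.5 CPM, 0.11). Cox7a2l, a factor that joins complexes III and IV into supercomplexes, had the lowest ratio of the class, with 227 CPM in the control against 196 in the knockdown library (-0.21, range -0.25 to -0.17). The catalytic beta subunit of the ATP synthase, Atp5b, stood at 591 and 578 CPM and the delta subunit Atp5d at 578 and 621 CPM (0.10). The assembly factors Sdhaf4 (67.2 and 73.2 CPM, 0.12) and Ndufaf7 (26.8 and 24.3 CPM, -0.14) and the accessory complex I subunits Ndufb10 (0.11) and Ndufa7 (-0.14) complete the ends of the list. These members belong to different complexes and go in both directions. With the trimmed mean of M values, which shifts all genes of this class by -0.06, 16 members were higher and 77 lower at any size, which compares with 43.4% and 56.6% of all genes under that scaling. With the library total 34 and 59 were higher and lower (62.7% and 37.3% of all genes). The members with a range wholly above or below 0 were 6 and 56 with the trimmed mean (13.6% and 21.5% of all genes).

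Ndufa4l2, an isoform of the complex IV subunit Ndufa4 that is known to respond to hypoxia, was read in tumour-like cells with 115 UMIs in the control against 177 in the knockdown library (1.05 and 1.94 CPM, log2 0.89, range 0.40 to 1.37). Of the 177 UMIs, 44 came from 4 cells. Cells with a UMI of Rgs5, Cdh5 or Pecam1, genes of vessel wall and endothelial cells, were 159 in the control against 173 in the knockdown library, and held 1 and 61 of these UMIs (0.240 and 19.2 CPM). In the other tumour-like cells, a split made after the values were seen, 114 and 116 UMIs remained, or 1.08 and 1.32 CPM.

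C1q-high cells of the knockdown library gave less subunit RNA than those of the control library. The share of their UMIs taken by all members was 1.77% in the control against 1.61% in the knockdown library, and the summed level went from 17654 to 16094 CPM, a log2 ratio of -0.13 (range -0.15 to -0.12). Of 92 members that passed the minimum, 80 were lower in the knockdown library (52.2% of the 8710 genes that passed were lower at any size), and the median log2 ratio was -0.12 against -0.01 over all genes. The step is small: 0 of 92 members were lower past log2 0.32 and 0 higher (5.63% and 5.53% of all genes), while 41 had a range wholly below 0 and 0 a range wholly above it (8.13% and 8.56% of all genes). Member ranges were narrower, with median ends of -0.28 and 0.01 against -0.31 and 0.29 over all genes. Members thus pass counting error more easily, and the share of all genes is no matched background for these range counts. In the rule's macrophages the median over 94 members was -0.05 against 0.07 over all genes, with 0 members lower and 0 higher past the fold (3.8% and 13.6% of all genes), and 69 of 94 were lower at any size (34.9%). The members summed to -0.05 there, and to -0.01 as the mean of per-cell CPM, -0.12 with the median of gene-wise ratios and -0.14 with the trimmed mean of M values. In the same cells the 12 macrophage markers summed to 52409 and 45314 CPM, with 12 of 12 lower and 4 past the fold, and the 9 fibroblast genes to 1002 and 1425 CPM, with 7 of 7 that passed the minimum higher past the fold. Their part in the result was not tested. The ends of that class were Uqcr10 (-0.22), Cox4i2 (-0.20), Ndufb11 (-0.20), Cox7a2l (-0.20) and Ndufb8 (-0.18) on the low side, and Ndufa4 (0.20), Sdhaf4 (0.19), Sdhaf3 (0.15), Ndufaf6 (0.12) and Ndufab1 (0.09) on the high side.

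The lower readings of C1q-high cells ran through all 5 complexes, where 52.2% of all genes were lower at any size and 8.13% had a range wholly below 0. Of the complex I core subunits 5 of 7 were lower and of its accessory subunits 27 of 30, and complex I summed to 5331 and 4964 CPM (-0.10, range -0.13 to -0.08). The NADH-binding subunit Ndufv1 stood at 64.4 and 59.4 CPM, with a range that includes 0, and Ndufa2, an accessory subunit, at 203 and 176 CPM (-0.21, range -0.33 to -0.09). Further core subunits had log2 ratios of -0.22 (Ndufs1), 0.02 (Ndufs3), -0.06 (Ndufs7), 0.01 (Ndufs8) and -0.16 (Ndufv2). Ndufs4, an accessory subunit that helps to complete complex I, was among the few higher ones (106 and 114 CPM, 0.11, range -0.05 to 0.27), and the assembly factor Ndufaf4 among the lower (18.6 and 15.4 CPM, -0.27, range -0.69 to 0.14). The 4 subunits of complex II were all lower, each with a range that includes 0, and summed to 410.5 and 391 CPM (-0.07, range -0.15 to 0.01).

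Complexes III, IV and V had the larger steps. In complex III, 7 of 8 subunits were lower (52.2% of all genes were), and the sum was at -0.16. The small accessory subunit Uqcr10 had the lowest ratio of all members in these cells, with 218 CPM in the control against 177 in the knockdown library (-0.30, range -0.42 to -0.18). The Rieske iron-sulphur protein gene Uqcrfs1, which hands electrons to cytochrome c1, stood at 114 and 97.2 CPM (-0.22, range -0.39 to -0.06), and the core protein gene Uqcrc2 at 72.0 and 73.2 CPM. In complex IV, 10 of 11 subunits were lower and 9 had a range below 0 (52.2% and 8.13% of all genes), and the sum was at -0.16. Cox8a went from 969 to 825 CPM (-0.23, range -0.29 to -0.18), and Cox5b from 412 to 356 CPM (-0.21). Ndufa4, first named for complex I and now known as a complex IV subunit, was the exception at 128 and 128 CPM.

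Complex V followed the same pattern, with 17 of its 18 rows lower and 13 with a range below 0 (52.2% and 8.13% of all genes), and a sum of -0.14. Of the catalytic F1 head, Atp5b was read at 298 CPM in the control against 251 in the knockdown library (-0.25, range -0.35 to -0.15), the alpha subunit Atp5a1 at 261 and 241 CPM (-0.12) and the gamma subunit Atp5c1 at 314 and 274 CPM (-0.20). The 3 genes for the membrane ring subunit c, Atp5g1, Atp5g2 and Atp5g3, code for the same mature protein and were all lower, by log2 ratios of -0.12, -0.15 and -0.24. Atpif1, the inhibitor of the ATP synthase, which the symbol rule leaves out, stood at 302 and 260.1 CPM in C1q-high cells (-0.21, range -0.31 to -0.11) and at 271 and 272 CPM in tumour-like cells. Atp5mpl, a small subunit of the membrane part, stood at 139 and 115 CPM (-0.28, range -0.43 to -0.13). The 2 Atp5o identifiers overlap on 1 strand and cannot be told apart with certainty: they were read at 176 and 154 CPM (ENSMUSG00000022956) and 38.4 and 40.8 CPM (ENSMUSG00000116933).

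**Figure D1:**
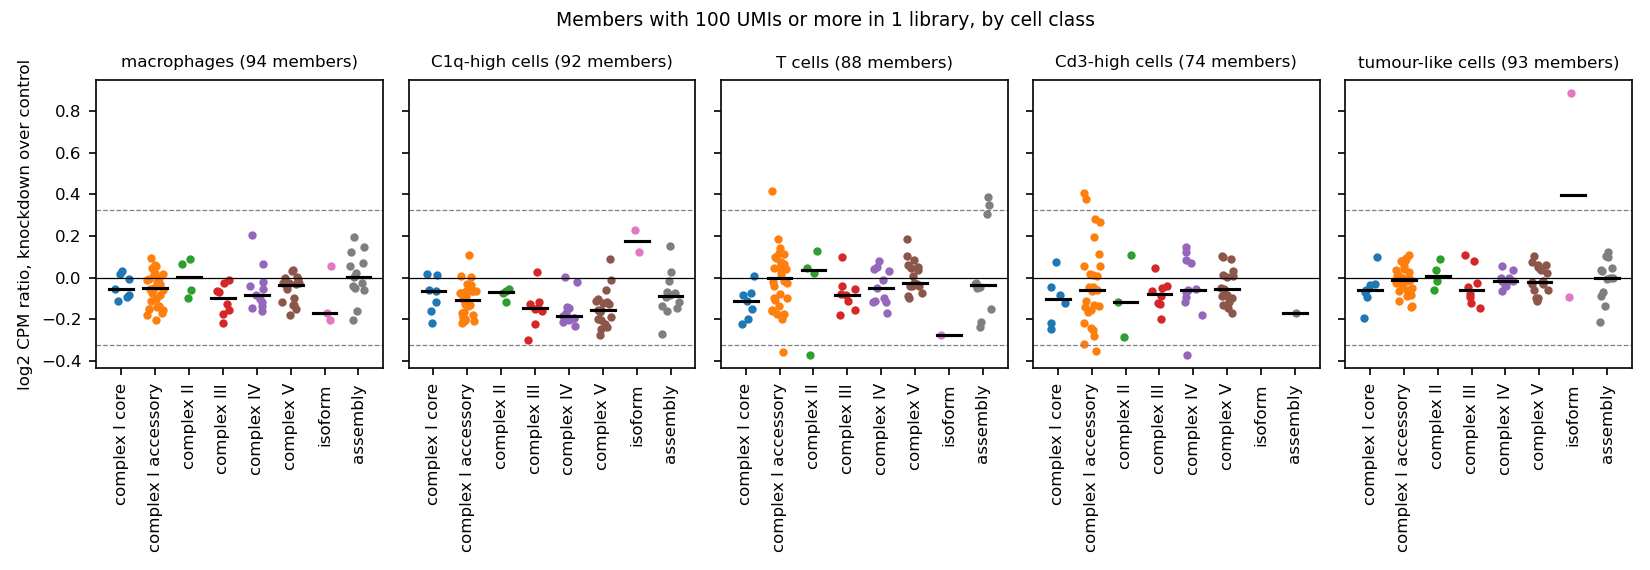
Log2 ratio of CPM, knockdown over control, of each member with at least 100 UMIs in 1 library (1 point a member), by role and cell class; black bars are medians and dashed lines the log2 0.32 limits. In C1q-high cells 80 of 92 points lie below 0 and none pass the limits, while tumour-like cells are centred on -0.01.

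**Figure D2:**
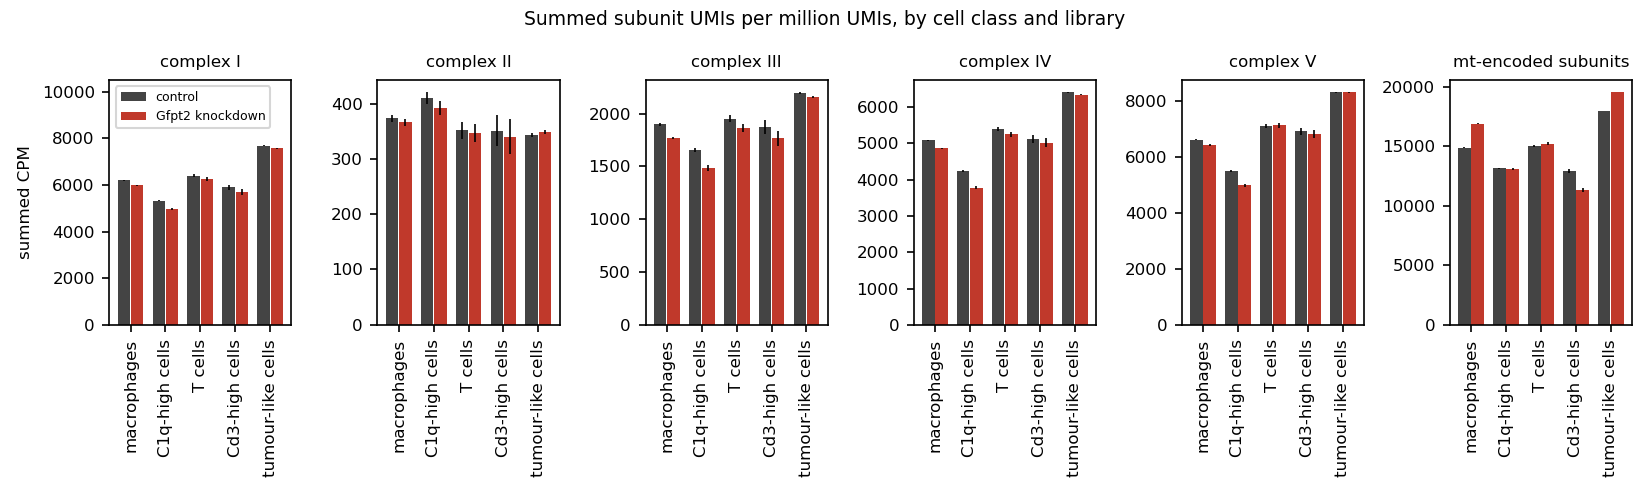
Summed CPM of the subunits of each complex and of the 13 mitochondrially encoded subunits, by cell class and library; bars start at 0 and error bars are exact 95% Poisson intervals. The knockdown bars of C1q-high cells are lower for complexes I, III, IV and V, and the mitochondrially encoded subunits are level there.

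Several measures moved with this difference. Cytosolic ribosomal protein genes took 12.8% of the UMIs of C1q-high cells in the control against 10.8% in the knockdown library, and their part in the result was not tested. Their share was lower in the knockdown library in the other classes too. It was 25.3% and 23.3% in tumour-like, 22.2% and 19.9% in Cd3-high cells, 18.1% and 16.7% in macrophages and 22.0% and 19.8% in T cells. Leaving ribosomal protein and mitochondrially encoded genes out of the total gave a summed log2 ratio of -0.17. Depth per cell was lower in the knockdown library, and after thinning each cell to 2000 UMIs (73 and 167 shallower cells left out) the median share of members per cell was 1.65% and 1.55%, against 1.67% and 1.54% unthinned. Cells with interferon genes (Ifit1, Ifit2, Ifit3, Rsad2 and Isg15 at 10 or more per 10000) were 794 of the control and 1249 of the knockdown C1q-high cells, and the members took 1.75% and 1.60% of their UMIs and 1.78% and 1.62% in the rest. Cycling cells (Mki67 and Top2a at 2 or more per 10000) were 247 and 199, with 1.98% and 1.77%, and 1.73% and 1.59% in the rest. The share was lower in the knockdown library in each of these 4 sets, which are overlapping splits of the same cells. The part of interferon or cycling cells in the result was not tested. Among marker lists, 11 LLC tumour genes summed to 989.9 and 844 CPM in C1q-high cells, 4 monocyte genes to 62.6 and 38.1, 8 endothelial genes to 20.4 and 36.2, 9 fibroblast genes to 107 and 134 and 5 erythroid genes to 18.7 and 39.4, and their part in the result was not tested. The erythroid genes, such as those of haemoglobin, were higher in the knockdown library in the other classes too, at 6.16 and 23.1 CPM in tumour-like, 13.3 and 55.2 in Cd3-high cells and 10.2 and 41.5 in macrophages. The 12 macrophage markers summed to 98893 and 96064 CPM in C1q-high cells and the 12 T cell markers to 23.6 and 28.0 CPM. In bulk sums such as these, less RNA per cell and a change in the mix of cells cannot be told apart.

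The mitochondrially encoded subunits went in different directions in different classes. In C1q-high cells the 13 of them summed to 13151 and 13086 CPM (-0.01, range -0.02 to 0.01). Of these genes 4 were higher and 9 lower (47.8% and 52.2% of all genes), and 1 was higher past the fold (5.53%). In tumour-like cells they were higher in the knockdown library, 17969 and 19583 CPM (0.12, range 0.12 to 0.13; 11 of 13 genes higher, where 62.7% of all genes were higher, and 0 past the fold, where 7.75% were), where the nuclear members summed to -0.01. With the trimmed mean of M values both sums of this class shift by -0.06. In the same cells the 12 macrophage markers summed to 573 and 686 CPM, with 12 of 12 higher and 2 past the fold. The 9 fibroblast genes summed to 2569 and 2895 CPM, with 7 of 7 that passed the minimum higher and 3 past the fold. The 11 LLC tumour genes summed to 2793 and 2761 CPM. Their part in the result was not tested. In the rule's macrophages the sums were 0.18 for the mitochondrial and -0.05 for the nuclear genes. Of the mitochondrial genes 11 of 13 were higher there (65.1% of all genes), and 2 past the fold (13.6%). In Cd3-high cells the mitochondrial sum was lower in the knockdown library, 12940 and 11361 CPM (-0.19, range -0.23 to -0.15), where the nuclear members summed to -0.03. Of 10 mitochondrial genes that passed the minimum there, 9 were lower (44.6% of all genes) and 2 lower past the fold (4.61% of all genes). In the rule's T cells the mitochondrial sum was 15032 and 15238 CPM (0.02, range -0.0004 to 0.04; 7 genes higher and 5 lower, where 58.4% and 41.6% of all genes were). Per cell, after thinning to 5000 UMIs, Spearman's rho between nuclear member and mitochondrially encoded UMIs was -0.02 and -0.03 over 5183 and 5370 tumour-like cells, and 0.10 and 0.16 over 1394 and 905 C1q-high cells. It was 0.19 and 0.35 over 2957 and 2387 of the rule's macrophages, and 0.20 and -0.11 over 74 and 47 Cd3-high cells. Both counts come from the same library and depth, so this is a description.

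In Cd3-high cells, with the library total as scaling, no single member differed between the libraries beyond counting error. Over the 74 members that passed the minimum the median log2 ratio was -0.07 (0.03 over all 3036 genes), 2 members were higher and 2 lower past log2 0.32 (8.79% and 4.61% of all genes), and 0 had a range that leaves out 0 (5.83% of all genes had one above 0 and 4.45% one below). The higher ones were Ndufs4 at 114 CPM in the control against 151 in the knockdown library (0.40, range -0.002 to 0.81), and Ndufb2 at 81.0 and 105 CPM. The lower ones were Cox6a1 (148 and 114 CPM, -0.37) and Ndufs6 (154 and 121 CPM, -0.35). All members summed to 20709 and 20272 CPM (-0.03, range -0.06 to 0.001). Other scalings changed this call: the sum was -0.08 (range -0.11 to -0.05) with the median of gene-wise ratios and -0.11 (range -0.14 to -0.08) with the trimmed mean of M values. The members with a range wholly below 0 were then 3 and 6 of 74 (5.7% and 7.02% of all genes), and 0 had one above. In the rule's T cells 3 members were higher past the fold (Ndufb4 0.42, Sdhaf4 0.39, Sdhaf2 0.35) and 2 lower (Sdha -0.37, Ndufa3 -0.36) of 88 (6.61% and 3.67% of 7353 genes). These counts moved with the settings. They were 0 and 0 at a minimum of 500 UMIs (3.27% and 1.61% of all genes) and 1 and 1 without cells of more than 1 class (5.66% and 4.64%). With stricter class rules 5 were higher (8.69%). With the trimmed mean of M values as scaling, Cd3-high cells had 1 member higher and 8 lower past the fold (5.07% and 8.99% of all genes with that scaling).

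With the library total as scaling, the share of UMIs taken by members differed more between the cell classes than between the libraries. Members took 2.58% and 2.55% of the UMIs of tumour-like cells, 2.07% and 2.03% in Cd3-high cells, and 1.77% and 1.61% in C1q-high cells. Relative to tumour-like cells of the same library the summed level was 0.804-fold and 0.794-fold in Cd3-high cells and 0.685-fold and 0.631-fold in C1q-high cells. The median member in C1q-high cells stood at -0.45 in the control against -0.53 in the knockdown library, close to the median of all genes (-0.42 and -0.48). In Cd3-high cells it stood at -0.26 in both libraries, below the median of all genes (-0.05 in both). For that comparison 247 genes in the control against 255 in the knockdown library, Ndufa4l2 among them, were left out, since with 0 UMIs in Cd3-high cells the floor of 3 counts lay at or above their tumour-like level and gave no fold. Another scaling shifts all genes of these class comparisons together, by 0.23 and 0.21 for C1q-high and by -0.26 and -0.28 for Cd3-high cells with the median of gene-wise ratios, and leaves the distance of the members from all genes as it is.

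C1q-high cells were lower than tumour-like cells past log2 0.32 in 59 of 94 members in the control library (53.5% of all genes) and in 70 of 93 in the knockdown library (55.4%), and higher in 5 and 2 (27.9% and 27%). In both libraries at once, 58 of 93 were lower (51.1%) and 2 higher (25.1%). With the median of gene-wise ratios the members lower were 40 and 48 (45.7% and 48.2% of all genes with that scaling), and higher 8 and 6 (33.4% and 32.1%). Cd3-high cells were lower in 42 of 92 members in the control (40.6% of all genes) and 41 of 92 in the knockdown library (40.4%), higher in 9 and 8 (37.2% and 37.5%), and in both libraries 35 were lower (34.4%) and 7 higher (31.6%). With the median of gene-wise ratios 64 and 66 members were lower (49.3% and 50.2% of all genes) and 5 and 3 higher (29.9% and 28.9%). With the trimmed mean of M values 73 and 71 were lower (54.7% and 53.5% of all genes) and 2 and 2 higher (26.4% and 26.5%). In the rule's classes, which hold tumour RNA, the medians were -0.25 and -0.29 for macrophages and -0.21 and -0.21 for T cells, with 35 members lower (35.9% of all genes) and 3 higher (24.6%) in both libraries for macrophages, and 27 lower (26.3%) and 3 higher (28.1%) for T cells.

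The same members set the class apart in each library. Pearson's r between the control and the knockdown library was 0.98 over 93 members for the C1q-high ratios and 0.94 over 92 for the Cd3-high ratios, which describes genes and not replicates. Complex II was the exception among the complexes. Its sum was higher in C1q-high than in tumour-like cells, with 410.5 against 343 CPM in the control and 391 against 348 in the knockdown library (log2 0.26 and 0.17), where the sums of complexes I, III, IV and V lay between -0.41 and -0.60 in the control and between -0.54 and -0.75 in the knockdown library.

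Sdhb, the iron-sulphur subunit of complex II, carried this. It was read at 221 and 213 CPM in C1q-high cells, 169.5 and 182 in Cd3-high cells and 109.7 and 112 in tumour-like cells, a log2 ratio over tumour-like cells of 1.01 and 0.92 for C1q-high and 0.63 and 0.70 for Cd3-high cells. The flavoprotein Sdha stood level (0.03 and -0.02 in C1q-high cells), and the membrane anchors were lower, Sdhc at -0.59 and -0.65 and Sdhd at -0.37 and -0.52. The 4 subunits of 1 enzyme thus went in different directions between these classes.

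Complex I spread as widely. Its core subunit Ndufv1 (-1.05 and -0.97) was lower in C1q-high cells, whereas the core subunit Ndufs3 was level (0.05 and 0.13). Among the accessory subunits Ndufb9 was read at 855 and 827 CPM in tumour-like and 315 and 289 in C1q-high cells (-1.44 and -1.52), and Ndufa12 at 238 and 251 and 92.2 and 80.4 CPM (-1.37 and -1.64). Both were also lower in Cd3-high cells (351 and 355 CPM and 103 and 94.2 CPM). Ndufa1, which is needed to assemble the membrane arm, went the other way, with 60.5 and 62.2 CPM in tumour-like, 84.8 and 74.9 in C1q-high and 118 and 97.1 in Cd3-high cells. The assembly factor Ndufaf2 was read at 52.9 and 54.0 CPM in tumour-like and 20.7 and 19.5 in C1q-high cells.

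In complex III the hinge protein gene Uqcrh was highest in Cd3-high cells, 609.9 and 558 CPM against 363 and 390.5 in tumour-like and 321 and 296 in C1q-high cells. In complex IV, Cox4i1, the common form of subunit IV, was level across classes at 645 and 639 CPM in tumour-like, 674 and 609 in C1q-high and 661 and 694 in Cd3-high cells. Ndufa4 separated the classes most among the complex IV subunits, with 504 and 517 CPM in tumour-like, 303 and 267 in Cd3-high and 128 and 128 in C1q-high cells (log2 -1.98 and -2.02 for the last). Cox6c followed with 754 and 746, 418 and 455 and 301 and 267 CPM. In complex V, Atp5g2 was read at 1759 and 1733 CPM in tumour-like, 922 and 990.3 in Cd3-high and 793 and 713 in C1q-high cells, while the alpha subunit Atp5a1 differed less, at 306 and 286, 302 and 283 and 261 and 241 CPM. The second Atp5o identifier (ENSMUSG00000116933) was higher in C1q-high cells (38.4 and 40.8 CPM against 9.40 and 8.79 in tumour-like cells), and the first (176 and 154 against 311 and 304 CPM) lower. Because both lie over the same stretch, how reads were shared between them is uncertain.

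**Figure D3:**
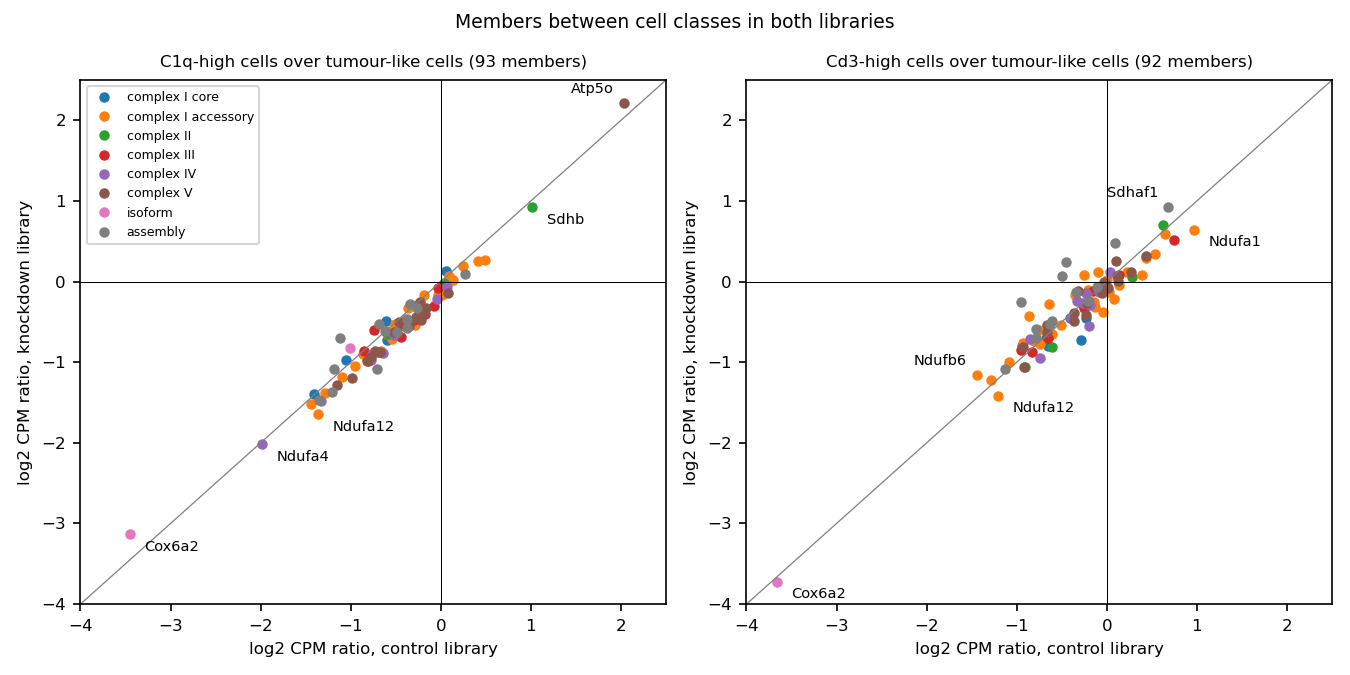
Log2 CPM ratio of each member over tumour-like cells, control library on the x axis and knockdown library on the y axis, for C1q-high cells (left, 93 members) and Cd3-high cells (right, 92 members), coloured by role; the diagonal marks equal ratios. Points follow the diagonal in both panels, with Cox6a2 and Ndufa4 at the low end and Sdhb and the second Atp5o identifier at the high end of the C1q-high panel.

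Tissue isoforms gave the sharpest contrasts between classes. Cox6a2, the heart and skeletal muscle form of Cox6a1, was read at 124 and 117 CPM in tumour-like cells, where 52.3% (exact binomial 95% interval 50.9 to 53.6) and 47.3% (45.9 to 48.6) of cells had a UMI. In C1q-high cells it stood at 11.4 and 13.3 CPM and in 6.35% and 6.16% of cells, and in Cd3-high cells at 9.84 and 8.83 CPM and in 3.11% and 2.12% of cells, at the lower median depths given above. Along the C1q level of macrophages it went from 103 and 94.7 CPM in the lowest bin to 11.4 and 13.3 CPM in the highest, beside the Hmga2 values above. Its partner Cox6a1 was read in all classes, at 169 and 167 CPM in tumour-like, 104 and 91.2 in C1q-high and 148 and 114 in Cd3-high cells.

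Cox4i2, a form of Cox4i1 that is known from lung and vessel wall cells, was found in C1q-high cells. It gave 108 and 88 UMIs there (8.03 and 8.74 CPM) in 92 and 71 cells, or 4.27% and 3.44% of cells, with at most 4 UMIs in 1 cell. Tumour-like cells, at the higher median depths given above, had it in 0.482% and 0.410% of cells (0.228 and 0.351 CPM), and Cd3-high cells gave 0 UMIs in both libraries, which allows 1.74 and 2.21 CPM at the floor of 3 counts and 2.13 and 2.71 CPM at the upper end of the exact Poisson interval. In the rule's T cells it gave 1 UMI in the control against 15 in the knockdown library, 13 of the 15 in 4 cells.

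Cox7a1, the muscle form of Cox7a2, was read with 51 and 28 UMIs in C1q-high cells (3.79 and 2.78 CPM), against 0.466 and 0.417 CPM in tumour-like cells. Cox7b2 gave 18 and 9 UMIs in tumour-like cells and 0 in C1q-high cells, which allows 0.223 and 0.298 CPM there at the floor of 3 counts and 0.274 and 0.366 CPM at the upper end of the exact Poisson interval. Cox6b2, known from testis, gave 18 and 11 UMIs in C1q-high cells and 3 and 2 in tumour-like cells. In these 2 classes none of the 3 passed the minimum of 100 UMIs for a comparison of the libraries. Cox7a1 passed it in the rule's macrophages alone, with 106 and 82 UMIs (2.59 and 2.30 CPM, -0.17, range -0.77 to 0.43), and the Poisson intervals of both libraries overlapped in each class named.

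**Figure D4:**
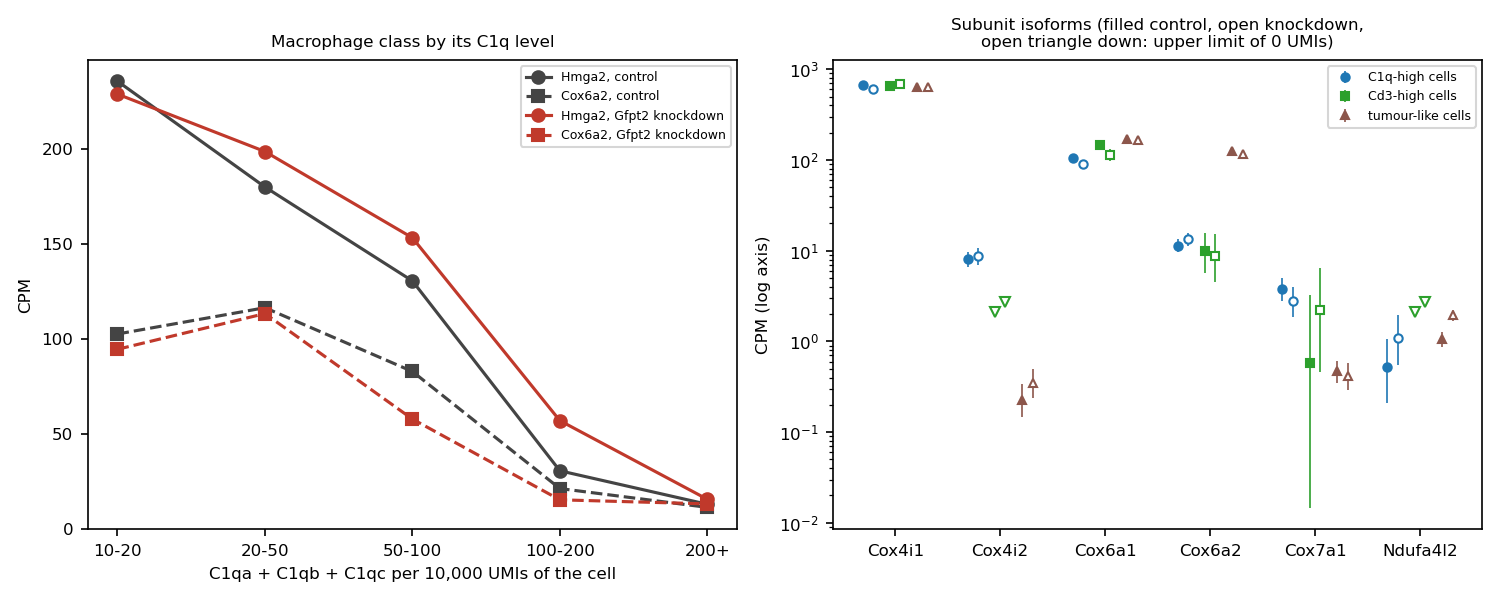
Left, Hmga2 and Cox6a2 CPM of the rule's macrophages by the C1q level of the cell, for each library; right, CPM of 4 tissue isoforms with Cox4i1 and Cox6a1 on a log axis by class, with exact 95% Poisson intervals (filled control, open knockdown, green downward triangle the upper limit of 0 UMIs). Hmga2 and Cox6a2 are both lowest in the highest C1q bin. Of the classes shown, Cox6a2 is highest in tumour-like cells and Cox4i2 in C1q-high cells.

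Tumour-like cells that were high in hypoxia genes carried less subunit RNA in both libraries. These cells (Bnip3, Egln3, Car9, Ankrd37 and Ndrg1 together at 5 or more per 10000) were 1738 in the control against 1988 in the knockdown library, and members took 2.41% and 2.39% of their UMIs against 2.66% and 2.65% in the other tumour-like cells. The median log2 ratio was -0.15 over 92 members in the control (-0.10 over all genes) and -0.16 over 93 in the knockdown library (-0.04 over all genes), and 6 members in each were higher at any size (30.9% and 40.6% of all genes). Past log2 0.32, 5 and 7 members were lower (13.4% and 9.12% of all genes) and 2 and 1 higher (4.66% and 4.46%). Median depth was 19176.5 and 14772 UMIs in the hypoxia-gene-high cells and 18873 and 14777 in the others. The mitochondrially encoded subunits took 1.66% against 1.87% of UMIs in the control and 1.79% against 2.05% in the knockdown library, and Hmga2 was read at 186 against 238 CPM and 179 against 240.1 CPM. Their part in the result was not tested.

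Of the members, 3 stood out on the low side with a range wholly below 0 in each library. Ndufa4 was read at 409 CPM against 552 in the other cells of the control library (-0.43) and at 431 CPM against 567 in the knockdown library (-0.40). The complex II assembly factor Sdhaf1 gave ratios of -0.49 and -0.39, and the subunit c gene Atp5g1 -0.34 and -0.36. On the high side, the complex I accessory subunit Ndufv3 was read at 147 CPM against 100.2 (0.55) and at 146 CPM against 109 (0.42), and Cox6a2 gave 0.39 and 0.18. Ndufa4l2, with 41 and 60 UMIs in the hypoxia-gene-high cells, did not differ beyond counting error (0.13 and -0.15). These 6 were chosen after their values were seen.

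**Figure D5:**
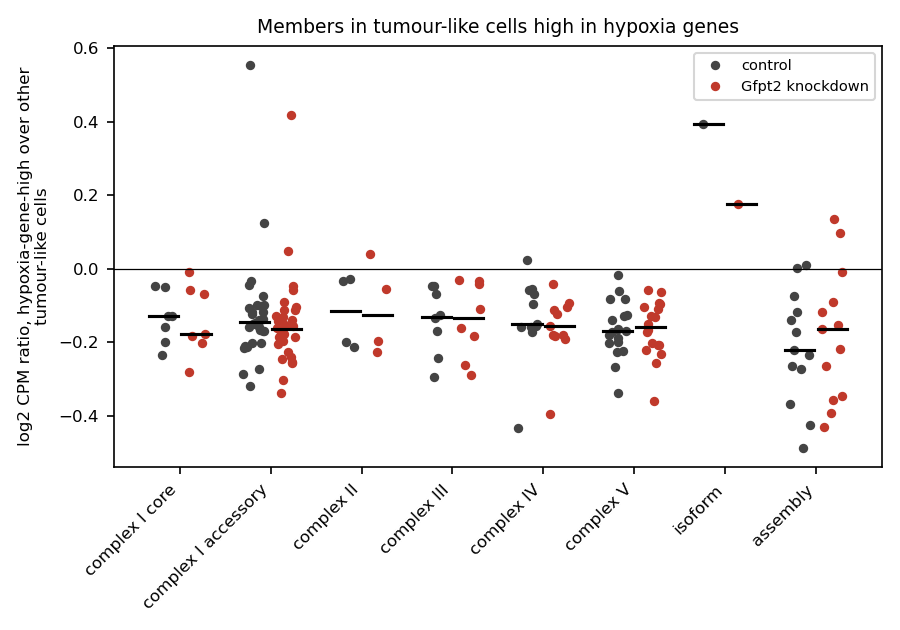
Log2 CPM ratio of each member with at least 100 UMIs on 1 side in both libraries, hypoxia-gene-high over other tumour-like cells, by role; black bars are medians. Most points of every complex lie below 0 in both libraries, with Ndufv3 at 0.55 and 0.42 as the highest.

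Cox6a2 also varied within tumour-like cells along other genes. In cells with Trib3, a gene of the integrated stress response, at 1 or more per 10000 (1326 and 1303 cells) it was read at 237 CPM against 79.6 in the control (1.57) and 209.6 CPM against 85.8 in the knockdown library (1.29), while the median member differed by -0.10 and -0.05. In cells with the keratin gene Krt14 (179 and 272 cells) the ratios were 1.12 and 1.05. In cycling tumour-like cells they were 0.21 and 0.02, and the median member stood at 0.01 in both libraries.

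Among C1q-high cells, cycling cells carried more subunit RNA. The median log2 ratio of cycling over other cells was 0.20 over 91 members in the control (0.06 over all genes) and 0.14 over 90 in the knockdown library (0.07), and 75 and 73 members were higher at any size (57.5% and 58.7% of all genes). Past log2 0.32, 17 of 91 and 16 of 90 were higher, no larger a share than that of all genes (20.4% and 21.7%). Atp5g3, whose promoter stretch is shown above, was read at 267 CPM against 204 and at 222 CPM against 176. Ndufa4 was read at 149.6 CPM against 115 in C1q-high cells with and without interferon genes of the control library, and at 138 CPM against 113 in those of the knockdown library. Among Cd3-high cells, those with Cd8a or Cd8b1, the receptors of cytotoxic T cells, at 2 or more per 10000 (361 and 306 cells) gave 2.14% and 2.08% of their UMIs to members, against 1.87% and 1.87% in the rest, at median depths of 3100.0 and 2959.5 against 1899.5 and 1692 UMIs.

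Other genes of mitochondrial energy metabolism, from lists of the wider pathway, gave the following in C1q-high cells of the knockdown against the control library, where 52.2% of all genes were lower at any size. Of 16 measured complex IV assembly and copper genes 8 were lower (median -0.002), of 7 other nuclear complex III and cytochrome c genes 4 (median -0.05), and of 10 regulators of mitochondrial biogenesis 6 (median -0.02). Of 16 glycolysis genes 9 were lower (median -0.03) and of 17 tricarboxylic acid cycle genes 13 (median -0.04). Of 25 genes of the mitochondrial ribosome and of protein import, 24 were lower (median -0.10, sum 2798 to 2560 CPM). All 6 adenine nucleotide and phosphate carriers and outer membrane channels were lower (median -0.23, sum 1750 to 1526 CPM). Of 7 genes of mitochondrial redox defence 6 were lower (median -0.16), while their sum went the other way, from 2196 to 2262 CPM. Past log2 0.32, where 5.63% of all genes were lower, 1 ribosome or import gene, 1 carrier, 2 tricarboxylic acid cycle genes and 1 redox gene were lower, and 0 genes of the other 4 lists. Higher past it, where 5.53% of all genes were, stood 1 complex IV assembly or copper gene and 1 glycolysis gene. In tumour-like cells, where 37.3% of all genes were lower at any size, 12 of the 25 ribosome and import genes and 4 of the 6 carriers and channels were lower, and 0 in either list passed the fold.

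Members with and without 1 of the 4 promoter motifs had similar medians. Rows and not symbols are counted here, so Atp5o enters with both identifiers. In C1q-high cells the median log2 ratio of knockdown over control was -0.12 over 42 members with a motif and -0.12 over 35 without, and the median ratio of C1q-high over tumour-like cells, as the mean of both libraries, was -0.47 over 43 and -0.43 over 35. In Cd3-high over tumour-like cells the medians were -0.24 over 43 members with a motif and -0.19 over 35 without, each with quartiles that overlap (-0.61 to -0.02 and -0.66 to 0.06).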

How the data were processed

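Gene counts (UMIs per gene and cell, raw and whole) were deposited by the authors as 1 filtered matrix per library. They were made with Cell Ranger, version 6.1.0 per the file headers and 3.1.0 per the submitters' processing notes; the genome build and annotation are not given in the sources used here. The matrices held 11977 cells (165824226 UMIs) in the control against 12853 cells (138402860 UMIs) in the knockdown library. Cells with at least 200 genes and at most 20% mitochondrial UMIs were kept (11808 and 12772), and doublets were not removed except in an alternative (highest Scrublet scores left out). UMIs were summed per class and library and given as CPM with exact 95% Poisson intervals, which cover counting error only. Genes with at least 100 UMIs on 1 side were called at a log2 ratio of 0.32, and a 0 was set to a floor of 3 counts. With 1 library a group there was no test and no value has a replicate spread. On simulated Poisson counts for the 3 rule classes, all 200 genes of each that were changed by a log2 step of 1 were recovered. Smaller steps, spread between libraries, and the C1q-high and Cd3-high classes were not simulated. Motifs were searched in RefSeq promoter windows.

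Members and gene lists were chosen with earlier results of these data known. Members were named if they were among the 5 highest or 5 lowest ratios of a comparison, catalytic core subunits or isoform pairs; the others named were chosen after their values were seen, as were the C1q-high and Cd3-high classes and the subsets. Python 3.11.15, numpy 2.4.6, scipy 1.17.1, pandas 2.3.3, scanpy 1.11.5 and matplotlib 3.10.9 were used. Some results are not reported here.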

Additional observations from a re-analysis of the deposited data

Results flagged for a closer look

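Some members had log2 ratios of knockdown over control whose ranges leave out 0 in opposite directions in 2 classes. With 1 library a group the difference between the classes was not tested. Higher in tumour-like cells and lower in C1q-high cells were Atp5e (0.061 against -0.11), Uqcrh (0.11 against -0.12), Atp5j2 (0.039 against -0.15), Uqcr11 (0.080 against -0.16), Ndufa12 (0.079 against -0.20), Cox7a2 (0.054 against -0.18) and Atp5g1 (0.059 against -0.12). Lower in the rule's macrophages and higher in tumour-like cells were Uqcr11 (-0.070 against 0.080) and Ndufv3 (-0.14 against 0.079). The tumour-like values are small and move with the scaling. With the trimmed mean of M values, Atp5e (to just below it), Atp5j2 (-0.023), Cox7a2 (-0.0073) and Atp5g1 (-0.0027) fell below 0 in tumour-like cells, while Uqcrh (0.05), Uqcr11 (0.02), Ndufa12 (0.02) and Ndufv3 (0.02) stayed above it, and with the median of gene-wise ratios Atp5j2 was at -0.002.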

How the results depend on the processing

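No paired analysis was possible because each group has 1 library, and no replicate could be left out for the same reason. Of the medians, sums and counts reported for a class, 344 values stayed within the counting range (counts: within 1.5 times) and the 134 below did not. For single members, taken with the counts past the fold in C1q-high and Cd3-high cells, 412 values moved and 3066 did not. The sign changed in 18 sums or medians, and 2 of these were sums whose reported range leaves out 0 (complex I in macrophages and complex IV in T cells, both with the mean of per-cell CPM). The direction of the lower member sum in C1q-high cells held under all settings kept for it (-0.11 to -0.17). Stricter class rules, leaving out cells of more than 1 class and a minimum of 5000 UMIs in all classes were not among them. The percentages in brackets after counts of members give the share of all genes past the fold under the same setting. Depth limits Cd3-high cells most, where a member at 100 CPM rests on under 200 UMIs. With the median of gene-wise ratios as scaling, the summed log2 ratio of knockdown over control in macrophages was -0.12, -0.098, -0.17, -0.13 and -0.11 for complexes I, II, III, IV and V and -0.12 for all members. Sums in T cells were -0.073, -0.082 and -0.042 for complexes I, IV and V and -0.068 for all members. In tumour-like cells the values were -0.061, -0.019, -0.071, -0.055 and -0.040 for complexes I, II, III, IV and V and -0.054 for all members. Sums read in Cd3-high cells were -0.082 for all members. The median over tumour-like cells was -0.055 (control library) and -0.12 (knockdown library) in macrophages, -0.23 (control library) and -0.32 (knockdown library) in C1q-high cells and -0.52 (control library) in Cd3-high cells. With the trimmed mean of M values, the summed log2 ratio of knockdown over control in macrophages was -0.13, -0.11, -0.18, -0.15 and -0.12 for complexes I, II, III, IV and V and -0.14 for all members. The values in T cells were -0.088, -0.13, -0.096 and -0.056 for complexes I, III, IV and V and -0.083 for all members. In tumour-like cells complexes summed to -0.081, -0.040, -0.092, -0.076 and -0.061 for complexes I, II, III, IV and V and -0.075 for all members. Ratios in C1q-high cells were -0.15 for all members. In Cd3-high cells the sums were -0.11 for all members. The median member was at -0.076 in tumour-like cells. Medians over tumour-like cells were -0.47 (control library) and -0.44 (knockdown library) in T cells and -0.66 (control library) and -0.64 (knockdown library) in Cd3-high cells. With ribosomal protein and mitochondrially encoded genes out of the total, the summed log2 ratio of knockdown over control in macrophages was -0.073, -0.12, -0.088 and -0.063 for complexes I, III, IV and V and -0.077 for all members. Sums read in T cells were -0.070, -0.078 and -0.039 for complexes I, IV and V and -0.065 for all members. In tumour-like cells the ratios were -0.056, -0.014, -0.066, -0.050 and -0.035 for complexes I, II, III, IV and V and -0.049 for all members. Sums in C1q-high cells were -0.17 for all members. In Cd3-high cells the values were -0.077 for all members. Against tumour-like cells the median was -0.39 (control library) and -0.42 (knockdown library) in macrophages and -0.69 (control library) and -0.77 (knockdown library) in C1q-high cells. At a minimum of 500 UMIs, in T cells 0 members were higher and 0 lower past the fold (3.27% and 1.61%). In tumour-like cells 0 members were higher past the fold (4.21%). At a minimum of 20 UMIs over both values, in macrophages 1 member was higher and 1 lower past the fold (20.2% and 7.26%). In tumour-like cells 2 members were higher and 1 lower past the fold (15.8% and 6.08%). Without the cells of the highest doublet scores, the summed log2 ratio of knockdown over control in macrophages was -0.088, -0.13 and -0.057 for complexes II, III and V and -0.063 for all members. The values in T cells were -0.037 for complex V and -0.048 for all members. In macrophages 2 members were higher and 1 lower past the fold (22.2% and 5.58%). In T cells 1 member was lower past the fold (5.35%). Against tumour-like cells the median was -0.41 (control library) and -0.45 (knockdown library) in macrophages. Without cells of more than 1 class, the summed log2 ratio of knockdown over control in T cells was -0.00609 for all members. In T cells 1 member was higher and 1 lower past the fold (5.66% and 4.64%). With stricter class rules (C1q 20, Cd3 4, tumour-like 10000 UMIs), the summed log2 ratio of knockdown over control in macrophages was -0.066, -0.084 and -0.059 for complexes I, IV and V and -0.071 for all members. Ratios in T cells were -0.00233 for complex IV and -0.00177 for all members. In tumour-like cells the sums were -0.011 and 0.013 for complexes I and V and -0.00357 for all members. In T cells 5 members were higher past the fold (8.69%). With cells of 5000 UMIs or more in all classes, the summed log2 ratio of knockdown over control in macrophages was -0.032, -0.073, -0.039 and -0.00777 for complexes I, III, IV and V and -0.029 for all members. In T cells 1 member was higher past the fold (6%). With the mean of per-cell CPM, the summed log2 ratio of knockdown over control in macrophages was 0.012, -0.069, -0.00885 and -0.00128 for complexes I, III, IV and V and -0.00543 for all members. The values in T cells were 0.00743 for complex IV and -0.00194 for all members. In tumour-like cells complexes summed to -0.029 and -0.013 for complexes I and V and -0.023 for all members. Ratios in C1q-high cells were -0.11 for all members. In macrophages 2 members were higher and 1 lower past the fold (17.1% and 5.79%). In T cells 4 members were lower past the fold (7.71%). The median over tumour-like cells was -0.43 (control library) and -0.42 (knockdown library) in macrophages. With C1q-high cells, a class added after seeing the data, in place of macrophages, the summed log2 ratio of knockdown over control in C1q-high cells was -0.10, -0.16, -0.16 and -0.14 for complexes I, III, IV and V and -0.13 for all members. Medians over tumour-like cells were -0.45 (control library) and -0.53 (knockdown library) in C1q-high cells. At 1.1-fold, in macrophages 3 members were higher and 19 lower past the fold (35.8% and 13.5%). In T cells 7 members were higher and 17 lower past the fold (27.5% and 16%). In tumour-like cells 6 members were lower past the fold (8.98%). At 1.5-fold, in T cells 0 members were higher and 0 lower past the fold (1.21% and 0.721%). Over all genes, the share of called genes that were higher in the knockdown library moved with the scaling (total, median of ratios, trimmed mean): from 78.1% to 61.7% and 58.4% in macrophages, from 64.3% to 48.2% and 43.7% in T cells, from 79.2% to 71.1% and 65.9% in tumour-like cells and from 65.6% to 45.9% and 36.1% in Cd3-high cells. In C1q-high cells it was 49.6%, 49.6% and 41.2%, and 35.9% without ribosomal protein and mitochondrial genes in the total. No value moved beyond its range when cells under 500 genes or over 10% mitochondrial, or with a barcode in both libraries, were left out.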

Other observations

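Kept cells that met none of the 3 class rules were 1129 in the control against 1232 in the knockdown library. Members took 2.42% and 2.30% of their UMIs, and the median log2 ratio of knockdown over control was -0.05.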
